A study of Mus musculus with 2 samples.

Results

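The hairpins described here are the microRNA genes of the mouse numbered Mir6896 to Mir7094, a block of late-numbered entries in the microRNA catalogue in which most hairpins lie at the end of an intron. Members were taken by number alone: every gene row whose Ensembl identifier carries such a symbol in GENCODE M21 was included, with or without a suffix. This gave 178 of the 1973 gene rows. The tissue was hindbrain dissected from healthy embryos of strain B6NCrl at embryonic day 13.5, with males and females pooled, and 2 libraries of short RNA, labelled with a size range below 30, were sequenced as biological replicates. They form 1 group, so levels within this tissue and the difference between its libraries are given, and no condition is compared. Both libraries carry 1 donor identifier but different biosample identifiers, and the litters are not named, so their spread may be technical in part.

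A microRNA hairpin is usually cut out of a longer transcript by the nuclease Drosha and then trimmed by Dicer into a short duplex, of which 1 strand, the 5p or the 3p arm, guides an Argonaute protein to messenger RNAs through its seed, bases 2 to 8. A mirtron bypasses Drosha: it is a short intron whose spliced-out and debranched RNA folds into a hairpin that Dicer can cut. Its ends are therefore those of the intron, GU at the 5′ end and AG at the 3′ end. In a tailed mirtron only 1 hairpin end coincides with a splice site and the rest of the intron has to be trimmed away. A mirtron can thus be made only where its host gene is transcribed and spliced.

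The hairpins of 6 of the 7 members with at least 10 counts in both libraries are shown, and they represent the 3 kinds of position found among these. Mir6979 also reached this count but had no match in RefSeq. Sequences are from RefSeq on GRCm38.p6, read 5′ to 3′, and capitals mark the hairpin bases that are also the first or last bases of an annotated intron. The first pair, of Mir6944 and Mir6958, fills a whole intron. Mir6977 begins at the intron's first base and stops before its last. Mir7083, Mir6897 and Mir6928 end on the intron's last base only.
Mir6944: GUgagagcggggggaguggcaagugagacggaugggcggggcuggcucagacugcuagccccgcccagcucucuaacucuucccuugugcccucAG
Mir6958: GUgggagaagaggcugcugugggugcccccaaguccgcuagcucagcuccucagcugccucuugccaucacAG
Mir6977: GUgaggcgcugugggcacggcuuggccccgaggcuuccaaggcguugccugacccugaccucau
Mir7083: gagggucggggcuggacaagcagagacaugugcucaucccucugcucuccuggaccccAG
Mir6897: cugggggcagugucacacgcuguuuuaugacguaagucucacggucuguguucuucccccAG
Mir6928: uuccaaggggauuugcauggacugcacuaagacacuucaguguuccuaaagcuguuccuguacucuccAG

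Coordinates on GRCm38, the assembly that mm10 denotes, placed nearly every member at a splice site. Of the 178 hairpins, 165 (92.7%) ended exactly on the last base of an annotated intron on the same strand, against 21 (1.22%) of the 1716 named rows outside the series. Of those 1716 rows, 831 had no host gene on their strand and 183 lay in a host gene but in none of its introns. Both ends lay within 5 nt of the intron's ends in 15 members, which is the position of a conventional mirtron. In 151 members (84.8%) only the 3′ end did, the position of a 5′-tailed mirtron. In 4 members only the 5′ end did and in 8 neither did. Named rows outside the series had 8, 30 and 4 hairpins at both ends, at the 3′ end only and at the 5′ end only. The host gene was protein-coding for 177 members, and Mir7094-2 lay in the immunoglobulin variable segment Ighv1-5. In 39 members the hairpin also overlapped an exon on the same strand. There a read from the hairpin and a read from that exon cannot be told apart. The exon belonged to another transcript, or to the same one where the hairpin runs past its intron's end. All 178 members lie on the strand of their host gene. A read from the unspliced or spliced-out intron at that place would thus be counted too, and the part of such reads was not tested.

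The introns differed widely in length. In the 15 members that fill their intron it was 67 to 137 nt long, with a median of 83 nt. In the 151 members at the 3′ end the stretch between the intron's first base and the hairpin ran from 7 to 36205 nt, with a median of 421 nt, and it exceeded 100 nt in 109 of them. The hairpins themselves had a median length of 66 nt, and their median GC content was 57.8%. Median length was 94 nt over all named rows outside the series. It was 84 nt for rows numbered Mir1 to Mir999, 87 nt for Mir1000 to Mir6895 and 64 nt for Mir7095 and above. The predicted folding energy of the members had a median of -27.1 kcal/mol, or -0.40 per nt. Per nt it was -0.37 over all named rows outside the series. By number it was -0.42 for Mir1 to Mir999, -0.40 for Mir1000 to Mir6895 and -0.41 for Mir7095 and above. Among the members the energy ran from -57.3 to -18.8 kcal/mol, with Mir6944 near the stable end at -55.8 and Mir6928 at the weak end.

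The letters of the hairpins are those of the 3′ splice site at which most of them lie. They follow from that position and are not separate support for it. Of the 178 hairpins 165 (92.7%) ended in AG, as did 6.59% of the 1716 hairpins outside the series. All of these 165 lay at both ends or at the 3′ end of their intron. Of the 15 that fill an intron, 13 also began with GT in the genome sequence. Over the last 25 bases the members held a median of 68% pyrimidines, against 52% outside, as in the pyrimidine-rich tract that precedes an acceptor site. The third base from the end was a pyrimidine in 95.5% of members, against 49.9% outside. Over the first 25 bases the members held a median of 44% guanine, against 28% outside. In a hairpin the first and last bases pair with each other, so these shares are not independent.

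**Figure D1:**
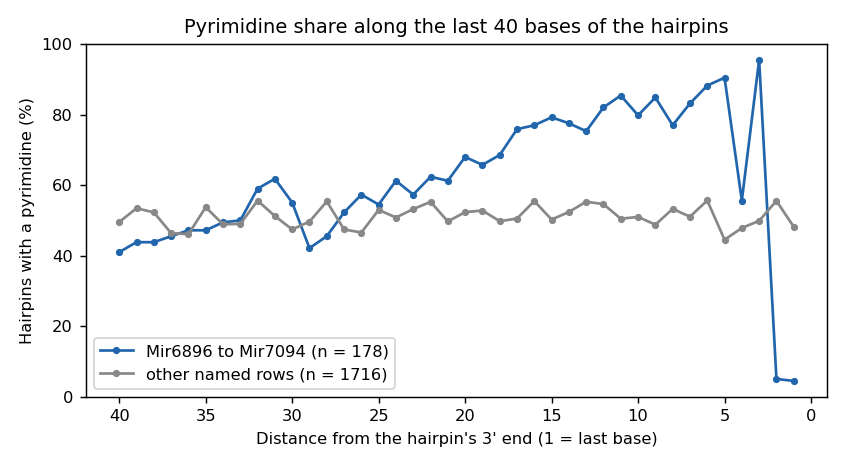
Share of hairpins with a pyrimidine (y axis, %) at each of the last 40 positions, counted back from the 3′ end (x axis), for the 178 hairpins Mir6896 to Mir7094 and the 1716 other named rows. The series lies at 95.5% at position 3 and drops to 4.49% at the last base, while it is 49.9% at position 3 in the other rows.

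RefSeq held mature arms for 163 of the 178 members, 312 arms in all, and for 161 of them a hairpin with the same coordinates and letters as in GENCODE. Not matched were Mir6950, Mir6951, Mir6952, Mir6953, Mir6954, Mir6970, Mir6971, Mir6972, Mir6979, Mir6980, Mir6981, Mir6982, Mir6983, Mir7040 and Mir7064. Of the 155 arms named 3p, 121 (78.1%) ended in AG and 116 ended on the hairpin's own last base. Of the 467 arms named 3p outside the series 53 (11.3%) ended in AG. The 3p arms held a median of 71.4% pyrimidines, and the 5p arms 31.8%. The arms of the 6 hairpins above follow, with the seed in capitals, since the seed sets which messenger RNAs an arm can bind.
miR-6944-5p: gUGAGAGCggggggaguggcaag
miR-6944-3p: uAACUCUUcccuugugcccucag
miR-6958-5p: gUGGGAGAagaggcugcugugg
miR-6958-3p: uCAGCUGCcucuugccaucacag
miR-6977-5p: gUGAGGCGcugugggcacggcuugg
miR-6977-3p: aAGGCGUUgccugacccugacc
miR-7083-5p: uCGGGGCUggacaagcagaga
miR-7083-3p: uCUGCUCUccuggaccccag
miR-6897-5p: uGGGGGCAgugucacacgcuguu
miR-6897-3p: cGGUCUGUguucuucccccag
miR-6928-5p: aGGGGAUUugcauggacugcacu
miR-6928-3p: aAGCUGUUccuguacucuccag

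The 312 arms held 287 distinct seeds. Among these, 21 seeds were carried by arms of more than 1 member, 46 arms in all, such as CACCCUG in the 3p arms of Mir7018, Mir7023 and Mir7068. Seeds of 15 arms also occurred in an arm of a row outside the series with at least 10 counts in both libraries. Of the hairpins printed above only Mir6958 is among these, with the seed of its 5p arm, UGGGAGA, also in arms of Mir30c-1 and Mir30c-2. The deposited counts are per hairpin, so the level of each arm is not given by them.

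As a whole the series was counted at a low level. Values are in CPM, a row's counts per 1000000 that the library had on gene rows, with no length scaling because 1 read covers 1 short RNA. Replicate 1 held 556 counts on the 178 members, 185 CPM with an exact Poisson 95% interval of 170 to 201 CPM. Replicate 2 held 888 counts, 197 CPM with an interval of 184 to 210 CPM. The intervals overlap, and cover counting error only. The mean was 191 ± 8.52 CPM (SD, n = 2), or 0.0191% of the counted reads, from 9.02% of the gene rows. For comparison, the 465 rows numbered Mir1 to Mir999 held 912481 ± 11131 CPM and the 304 rows numbered Mir1000 to Mir6895 held 7624 ± 1030 CPM. The 95 rows numbered Mir7095 and above held 130 ± 11.7 CPM.

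Few members reached a count that can be measured well, but most were seen. With at least 10 counts in both libraries, 7 of 178 members (3.93%) were detected, against 356 of all 1973 gene rows (18.0%). The share was 59.4% for Mir1 to Mir999, 17.1% for Mir1000 to Mir6895 and 8.42% for Mir7095 and above. At least 1 count in either library was found for 125 members (70.2%), against 717 of all gene rows (36.3%). It was 74.8%, 45.4% and 54.7% in those bands and 5.99% in the 852 rows whose name has no such number. The remaining 53 members had 0 counts in both libraries, which by the usual one-sided limit of 3 counts allows up to 0.998 CPM in replicate 1 and 0.665 CPM in replicate 2. Upper ends of the two-sided Poisson interval are 1.23 and 0.818 CPM. Reads that matched several places were in no gene row, 33.9% and 34.5% of the reads. A stretch of 20 nt shared with another hairpin, which leads to such reads, was found in 3 of the 178 members, Mir6970, Mir7065 and Mir7094-2, and in 920 of the 1716 named rows outside the series, and its part in these shares was not tested.

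**Figure D2:**
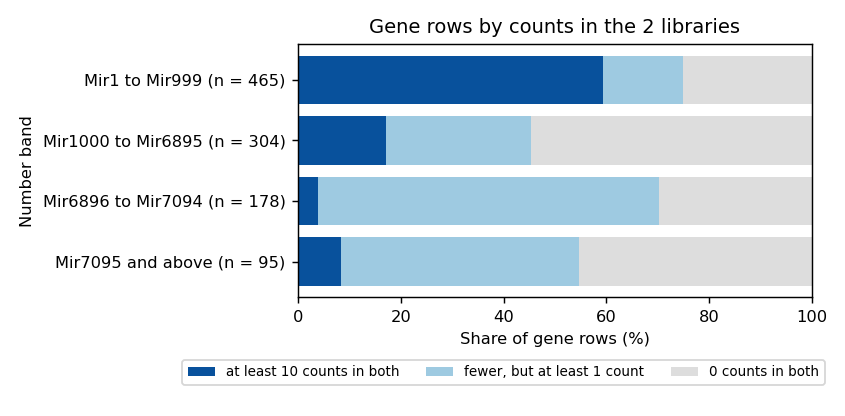
Share of gene rows (x axis, %) in each number band (y axis, with its number of rows) that had at least 10 counts in both libraries, fewer but at least 1 count, or 0 counts in both. In the band Mir6896 to Mir7094 the first class is 3.93% and the rows with any count make up 70.2%.

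The libraries saw overlapping sets. Replicate 1 had counts on 97 members and the deeper replicate 2 on 111, at a depth ratio of 1.5. The 83 members seen in both made up 85.6% of the first set and 74.8% of the second. Over all gene rows these shares were 91.9% and 88.3%, and for Mir1 to Mir999 both were 96.7%. At the depth of replicate 1, replicate 2 would be expected to show 101 members. Single counts and pairs of counts were common, with 29 members at 1 count and 17 at 2 counts in replicate 1, and 22 at each in replicate 2. A count of 1 is worth 0.333 CPM in replicate 1 and 0.222 CPM in replicate 2, and the median member stood at 0.333 CPM. No member had a count on the opposite strand in either library, although 57609 and 87500 such counts lay on 41 and 45 rows elsewhere.

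Mir6944 stood apart from the other members. It fills a 96 nt intron of Dbn1, which encodes drebrin, an actin-binding protein of neurons (ENSMUSG00000098341.1, chr13:55477681-55477776, minus strand). Replicate 1 held 197 counts and replicate 2 held 349, which is 65.5 and 77.4 CPM, or 71.5 ± 8.41 CPM (SD, n = 2). It took 35.4% and 39.3% of the counts of the series, 11.6 and 12.9 times those of the next member in replicates 1 and 2. In the order of all 1973 gene rows it ranked 221. Without it the series summed to 119 and 120 CPM, a mean of 119 ± 0.109 CPM.

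The next member, Mir6958, fills a 73 nt intron of Dennd6b, a gene of the DENN-domain family that acts on Rab GTPases (chr15:89185465-89185537, minus strand), and overlaps an exon of another transcript. It had 17 and 27 counts in replicates 1 and 2, or 5.82 ± 0.237 CPM (SD, n = 2). Mir6977 starts on the first base of a 79 nt intron of Ptprs, which encodes a receptor tyrosine phosphatase of neurons (chr17:56418846-56418909, minus strand). It had 16 and 20 counts, or 4.88 ± 0.626 CPM. The intervals of these hairpins overlap within each library, so their order is not resolved at this depth.

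The other detected members all sit at the 3′ end of longer introns. Mir7083, in an intron of Dock6 (chr9:21809941-21810000, minus strand), had 14 and 20 counts, or 4.55 ± 0.156 CPM (SD, n = 2). Mir6897, in Uggt1, which checks glycoprotein folding in the endoplasmic reticulum (chr1:36144252-36144313, minus strand), had 14 and 10 counts, or 3.44 ± 1.72 CPM. Its levels were 4.66 CPM in replicate 1 and 2.22 CPM in replicate 2, with overlapping intervals. Mir6979, in Diaph1, which encodes a formin that builds actin filaments (chr18:37854605-37854660, minus strand), had 10 and 13 counts, or 3.10 ± 0.313 CPM. Mir6928, in Atp6v0a1, a subunit of the proton pump that acidifies synaptic vesicles and endosomes (chr11:101030340-101030409, plus strand), had 10 and 10 counts, or 2.77 ± 0.783 CPM. The tails before these hairpins were 1773, 1718, 813 and 1081 nt long.

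Another 13 members complete the 20 described by name, those highest in mean CPM with at least 3 counts in both libraries. They ran from 2.99 ± 0.471 CPM for Mir7026 down to 1.88 ± 1.10 CPM for Mir7075 (SD, n = 2). Mir7026 lies in Ep400, a chromatin remodeller, and had 8 and 15 counts. Mir6951 lies in Azin1, an antizyme inhibitor of polyamine control, had 9 and 13 counts and has a GC content of 25.3%, the lowest of the series. Mir6991 had 5 and 18 counts and lies in 2700081O15Rik. Mir6934 in Tbc1d16, a Rab regulator, had 7 and 12 counts. Mir7063 in Ap2a2, a subunit of the clathrin adaptor AP-2, had 5 and 13 counts. These 5 hairpins lie at the 3′ end of their intron with tails of 110 to 944 nt, and the Poisson intervals of the libraries overlapped for each of them.

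The remaining 8 lie in hosts of varied function. Mir7089 lies in the cell cycle phosphatase gene Cdc25a and had 9 and 7 counts. Mir7069 lies in Farsa, a transfer RNA synthetase subunit, and had 5 and 12 counts. Mir6990 lies in the nuclear receptor gene Esrra, overlaps an exon of another transcript and had 4 and 13 counts. Mir6971, in the RNA helicase gene Skiv2l, had 3 and 14 counts, and Mir6907, in the ribosome biogenesis gene Rrp1, had 6 and 8. Mir7075, in the telomere protein gene Terf2, had 8 and 5. Mir6935, in the gamma-actin gene Actg1, and Mir7068, which fills a 74 nt intron of Cherp, both had 10 and 4 counts and both overlap an exon of another transcript. In these 8 the level in CPM was higher in replicate 1 for Mir7089, Mir7075, Mir6935, Mir7068 and Mir6907 and in replicate 2 for the others, with overlapping intervals in each.

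**Figure D3:**
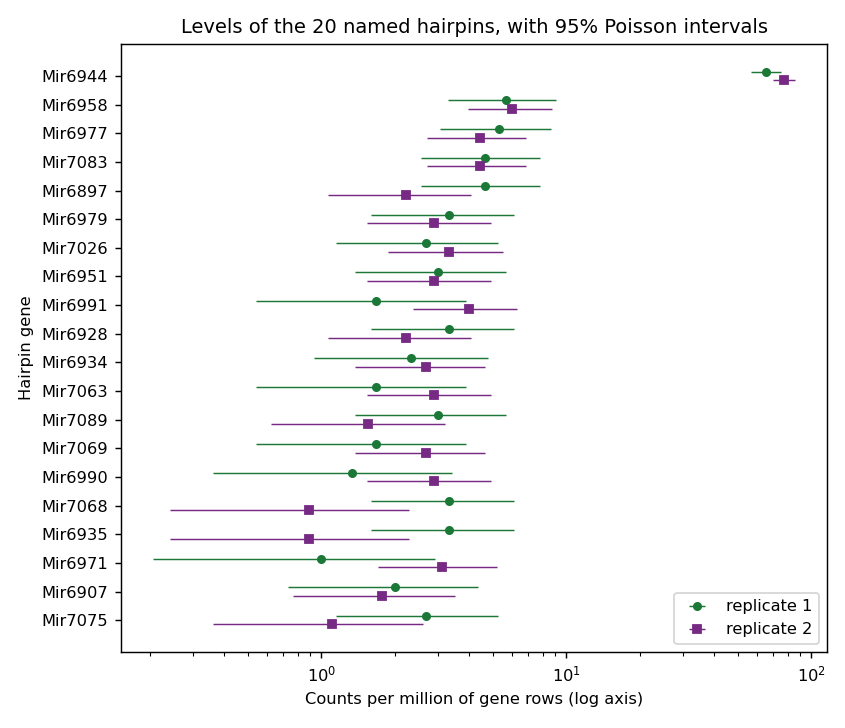
Level of the 20 named hairpins (y axis, in order of mean CPM) in replicate 1 and replicate 2, in CPM on a log axis (x axis), with points for the libraries and bars for exact Poisson 95% intervals. Mir6944 lies at 65.5 and 77.4 CPM and the other 19 lie below 6 CPM in both libraries.

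Grouped by position, the 15 members that fill an intron summed to 84.1 ± 6.53 CPM (SD, n = 2), of which 12.6 ± 1.88 CPM remained without Mir6944. In this group 10 had a count in either library, among them Mir7070 in Fbxw9 with 3 and 6 counts and Mir7018 in Hspg2, the gene of the matrix protein perlecan, with 1 and 8. Mir6923 in the embryonic myosin gene Myh3 and Mir7058 in the T cell gene Lat had 0 counts in both. The 151 members at the 3′ end summed to 97.6 ± 3.47 CPM, with 108 seen and 4 detected. The 4 at the 5′ end summed to 5.82 ± 0.704 CPM, most of it from Mir6977, and the 8 at neither end to 3.44 ± 0.783 CPM. The median member stood at 0.333 CPM both among those that fill an intron and among those at the 3′ end. Most of the sum of the first group came from 1 hairpin.

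Among the 151 members at the 3′ end, levels are given by tail length as values, with no test made. The 42 with a tail of up to 100 nt summed to 23.3 ± 1.50 CPM (SD, n = 2), the 39 with 101 to 500 nt to 23.4 ± 4.87 CPM, the 40 with 501 to 1500 nt to 29.3 ± 1.87 CPM and the 30 with longer tails to 21.6 ± 1.01 CPM. Counts were found on 29, 28, 28 and 23 members of these groups, or 69.0%, 71.8%, 70.0% and 76.7%. The detected members numbered 0, 0, 2 and 2. The 39 members that overlap an exon summed to 25.3 ± 4.70 CPM, and the 139 without such an overlap to 166 ± 13.2 CPM, with counts on 66.7% and 71.2% of them.

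**Figure D4:**
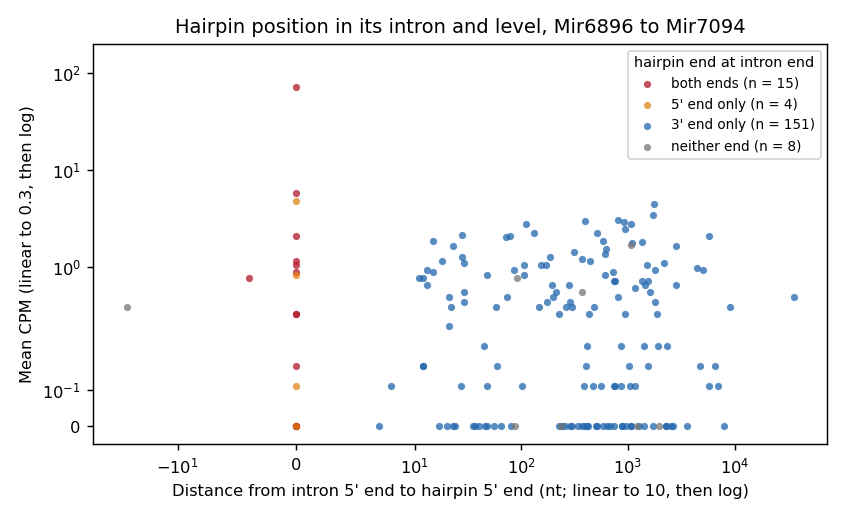
Mean CPM of each of the 178 hairpins (y axis, linear to 0.3 and then log) against the distance from the intron's 5′ end to the hairpin's 5′ end in nt (x axis, linear to 10 and then log), coloured by which hairpin ends lie at an intron end. Apart from Mir6944 at 71.5 CPM, hairpins that fill an intron (at or near 0 nt) and hairpins with tails of 7 to 36205 nt spread over the same low levels.

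Hairpins known to bypass Drosha give a scale for these levels. Whether the members do was not tested. Mir484 and Mir320, which are transcribed directly as short capped hairpins, had 2681 ± 12.4 CPM and 496 ± 69.4 CPM (SD, n = 2). The mirtron Mir877, in Abcf1, had 106 ± 20.96 CPM, from 90.8 CPM in replicate 1 and 120 CPM in replicate 2. Mir702, in Plod3, whose hairpin starts 9 nt before the intron and ends 2 nt before its end, had 56.0 ± 2.99 CPM, and the mirtron Mir1224, in Vwa5b2, 23.7 ± 2.91 CPM. Mir6944 lay between Mir877 and Mir702 in value in both libraries. Its Poisson interval was apart from that of Mir877 in both, but in replicate 1 its 56.7 to 75.3 CPM overlapped the 45.9 to 62.8 CPM of Mir702, so that order is not resolved there. The other members lay below Mir1224, which had 21.6 and 25.7 CPM. Together Mir877, Mir702 and Mir1224 held 185 ± 26.9 CPM, about as much as the 178 members together.

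The libraries were compared gene by gene with a two-sided exact binomial test on the counts, given library sizes scaled by edgeR's trimmed mean (TMM), with Benjamini-Hochberg adjustment over the 356 detected rows. It sets 2 libraries of 1 condition side by side and allows for counting error alone. It passed 161 rows, 45.2% of those tested. None of the 7 detected members passed, and none had an unadjusted p under 0.05. The lowest adjusted p was 0.149, for Mir6944, whose log2 ratio of replicate 2 over replicate 1 was 0.23. Mir6897 had a log2 ratio of -1.08 and an adjusted p of 0.166 by the exact binomial test. These values do not show that the levels were equal.

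Lower count minimums brought in more members. Among rows with at least 10 counts summed over the libraries, 37.6% of 442 passed, while none of 29 members did. There Mir6935 and Mir7068, each with 10 and 4 counts, had an unadjusted p of 0.0247 and an adjusted p of 0.0630 by the exact binomial test. Among rows with any count, 21.3% of 717 passed and none of 125 members, of which 3 had an unadjusted p under 0.05. The third was Mir6956, listed at 0 and 8 counts and chosen after its values were seen. Low counts leave little room to pass. Mir6985, at 0 and 5 counts in replicates 1 and 2, had an unadjusted p of 0.164 by the exact binomial test. The shares of members and of all rows that passed are therefore not alike in depth.

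**Figure D5:**
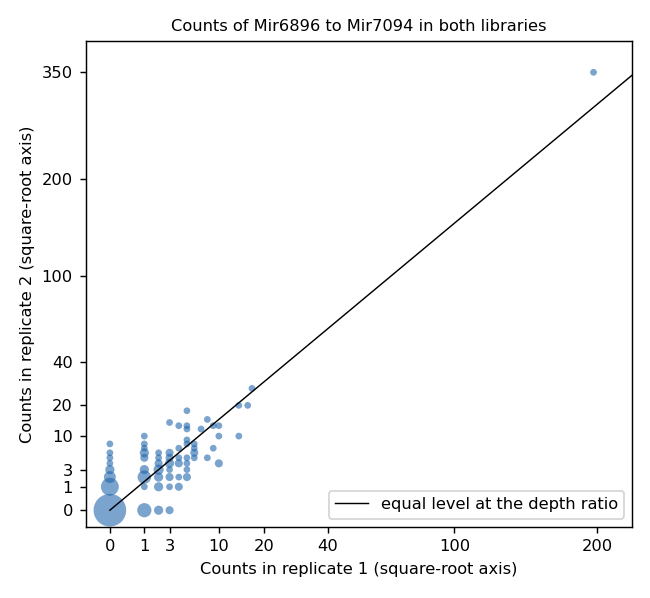
Counts of the 178 hairpins in replicate 1 (x axis) and replicate 2 (y axis), both on square-root axes, with larger points where several hairpins share a pair of counts and a line for equal levels at the depth ratio of 1.5. Mir6944 lies at 197 and 349 counts, the 53 hairpins with 0 counts in both form the largest point, and the rest have at most 17 counts in replicate 1 and 27 in replicate 2.

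The tissue label was checked on a few marker microRNAs. Mir10a and Mir10b, tied to hindbrain and trunk Hox domains, had 84053 ± 12284 CPM and 37089 ± 4311 CPM (SD, n = 2), and the neuronal Mir137 had 6207 ± 105 CPM. Neuronal Mir124a was at 1.22 to 3.55 CPM per copy, but its 3 copies share sequence with each other, so their reads may be in no gene row. Muscle Mir206 had 32.6 and 64.1 CPM. Muscle Mir1a-1, Mir133a-1 and Mir133a-2 were listed at 0 counts, but share sequence with other copies, so their reads may be in no gene row. Liver Mir122 had 39.9 ± 4.17 CPM, cardiac Mir208b 59.1 ± 58.5 CPM and erythroid Mir451a 105 ± 67.1 CPM. Mir208b and Mir451a were higher in replicate 1, with 100 against 17.7 CPM and 152 against 57.5 CPM. Cardiac Mir208a was too, with 15.6 against 3.33 CPM, while blood Mir144 had 20.3 and 20.9 CPM in replicates 1 and 2. Endothelial Mir126a had 19728.5 ± 1148 CPM, above Mir137, and blood Mir223 had 147 ± 7.80 CPM. Neural Mir9-3 had 573 ± 65.5 CPM and Mir9-2 had 3.16 ± 0.236 CPM, and both share sequence with other copies. The part of other tissues in the counts of the members was not tested. In bulk tissue, fewer cells that make a hairpin and less of it per cell cannot be told apart.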

How the data were processed

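Short RNA of 2 hindbrain libraries at embryonic day 13.5 was analysed. The authors deposited 1 table of raw read counts per library, made from alignments to mm10 with annotation M4, per the README texts deposited with them. For the aligner, the counter and the trimming of adapters, nothing is stated in the sources used here. The tables have counts for either strand, the annotated strand and the opposite strand. The strand column with 98.1% of the gene counts in both libraries was read as the annotated one and is used throughout. Gene rows held 3006571 counts in replicate 1 and 4508244 in replicate 2. Summary rows were left out.

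Names and introns came from GENCODE M21, sequences from RefSeq (GRCm38.p6). The intron that matched most hairpin ends within 5 nt was used for each hairpin. Intervals are exact Poisson, at 95%, and no molecular identifiers are named. Folding energies are from RNAfold 2.7.2. Library sizes came from edgeR 4.0.16, and tests from scipy 1.17.1. The test was tried on simulated counts with Poisson error alone, unscaled totals and changes only in better counted genes. That trial does not cover the spread between these libraries or changes in low counts. Named were the detected members, then members with at least 3 counts in both libraries by mean CPM up to 20, and Mir877, Mir1224, Mir702, Mir320 and Mir484. The rule also took the 5 members with most opposite-strand counts, but there were no such counts. Members and lists were chosen with earlier results of these data known. The tail-length groups were chosen after seeing the data. Alternatives covered strand, denominator, count minimum, scaling (totals, DESeq2 1.42.0 size factors), left-out replicates and the intron tolerance.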

Additional observations from a re-analysis of the deposited data

How the results depend on the processing

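The number of detected members depends on the count minimum. It was 7 at 10 counts in both libraries, 23 at 5 counts, 1 at 20 counts (Mir6944), and 9 to 16 with a single library at 10 counts, the 16 being without replicate 1. The summed level of 191 CPM was 92.1 per 1000000 of all reads, 187 CPM with reads on either strand, and 185 to 197 CPM with 1 library left out. It was 119 CPM without Mir6944 and 166 CPM without members that overlap an exon, both added after seeing the data. Members with any count numbered 125, 97 to 111 with 1 library left out and 101 in replicate 2 thinned to the depth of replicate 1, an expected number added after seeing the data. The exact binomial test passed 153 to 169 rows over the scalings and filters tried, and 0 members in each. Hairpins with at least 1 end at a splice site numbered 170 at 2 and 5 nt and 176 at 10 nt. No paired analysis was possible because the series has 1 group. Depth limits every level below about 3 counts.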

Other observations

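Hairpins that fill an intron were also present outside the number range, in 8 rows, which were chosen after their values were seen apart from Mir877 and Mir1224. They summed to 230 ± 27.5 CPM (SD, n = 2) and 5 of them had at least 10 counts in both libraries. Beside Mir877 and Mir1224 these were Mir1981 in Marc2 at 49.6 ± 0.0910 CPM, Mir3102 in Arhgef17 at 44.9 ± 2.36 CPM and Mir3547 in Baiap3 at 4.16 ± 0.234 CPM. Mir1982 had 4 and 13 counts in replicates 1 and 2, Gm24589 had 0 and 2 and Gm27471 had 0 in both. The median of these 8 rows was 13.9 CPM, against 0.333 CPM for the 15 members that fill an intron, and the difference was not tested. Mir6944 lay above each of these rows but Mir877.

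Of the 178 members, 4 pairs share a host gene: Mir6970 and Mir6971 in Skiv2l, Mir6980 and Mir6981 in Arap3, Mir7077 and Mir7078 in Cmip, and Mir6921 and Mir6922 in the lipid synthesis regulator gene Srebf1. In Skiv2l, Mir6970 had 4 and 2 counts and Mir6971 had 3 and 14.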
